A study of Mus musculus with 6 samples.

Results

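The integrin chains examined here are 10 genes for adhesion receptors of lymphoid, myeloid and megakaryocyte cells: the α chains Itga4, Itga6, Itgae, Itgal, Itgav, Itgam and Itga2b and the β chains Itgb1, Itgb2 and Itgb7. All probe sets that the array annotation assigns to exactly 1 of these symbols were taken, which gave 26 of the 45037 probe sets tested and 10 of the 18193 genes with a symbol of their own. RNA came from early thymic progenitors, an immature thymocyte stage, of C57Bl/6 mice aged 10 weeks. The sort kept thymocytes that carried kit and CD44 and lacked CD25 and lineage antigens. There were 3 arrays of Tcf1-/- and 3 of Tcf1-/+ mice. Tcf1 is a DNA-binding factor of the Wnt and T-lineage programmes. A second label of the Tcf1-/+ arrays says wild type, so that the genotype of the controls is not settled by the labels. The number of animals behind an array is not stated, and p-values measure the spread between these arrays.

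An integrin is a pair of 1 α and 1 β chain that sits in the membrane, binds matrix proteins or proteins of other cells outside, and couples to the actin cytoskeleton inside. Its grip is switched on from within the cell by Rap1, talin and kindlin proteins. Blood-borne progenitors use α4 and β2 integrins to leave vessels, thymocytes hold on to stroma that carries VCAM-1, fibronectin and laminin, and αEβ7 binds E-cadherin of epithelium.

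The promoter table held 6 of the 10 genes, Itga4, Itgav, Itgam, Itga2b, Itgb1 and Itgb7, and had no entry for Itga6, Itgae, Itgal and Itgb2. The 250 bases before the start site are shown for Itga4, Itgb7 and Itgam. Itga4 and Itgb7 are the chains of α4β7, whose means differed in opposite directions on the brightest probe set of each gene. Neither difference passed the adjusted threshold given below, and 2 of the 5 Itga4 probe sets had a higher Tcf1-/- mean. Itgam was the 1 gene of the 6 with the letters of a TCF/LEF core motif. The printed bases are RefSeq sequences of the mouse build GRCm38.p6, written 5′ to 3′ on the strand of the gene. The windows are chr2:79255176-79255425 on the plus strand for Itga4, chr15:102231936-102232185 on the minus strand for Itgb7 and chr7:128062390-128062639 on the plus strand for Itgam. Capitals mark matches on either strand to 4 core motifs. The letters searched were CTTTGA for TCF and LEF factors and TGTGGT for RUNX factors. For ETS factors they were GGAAGT and for GATA factors AGATAA. No match in the printed windows overlapped another.
Itga4: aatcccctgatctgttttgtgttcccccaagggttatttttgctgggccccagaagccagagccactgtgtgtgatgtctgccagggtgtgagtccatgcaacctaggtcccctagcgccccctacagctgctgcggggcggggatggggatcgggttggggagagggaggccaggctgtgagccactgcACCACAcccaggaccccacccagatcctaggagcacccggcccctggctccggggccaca
Itgb7: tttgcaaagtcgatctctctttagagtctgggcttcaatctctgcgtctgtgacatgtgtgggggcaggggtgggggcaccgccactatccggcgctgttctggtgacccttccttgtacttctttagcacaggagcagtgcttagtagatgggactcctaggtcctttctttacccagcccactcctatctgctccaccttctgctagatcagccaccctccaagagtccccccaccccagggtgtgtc
Itgam: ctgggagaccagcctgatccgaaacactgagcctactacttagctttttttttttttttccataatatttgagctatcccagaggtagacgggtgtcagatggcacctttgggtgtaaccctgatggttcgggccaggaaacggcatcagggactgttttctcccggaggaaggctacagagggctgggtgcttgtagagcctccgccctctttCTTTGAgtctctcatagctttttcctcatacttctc

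The capitals in Itga4 are a RUNX match read on the opposite strand, 60 bases before the start. Itgb7 held none of the 4 motifs in this window. The capitals in Itgam are the TCF/LEF match, 36 bases before the start. Over 32851 promoter windows of this length, 13.8% held CTTTGA, 14.0% TGTGGT, 19.7% GGAAGT and 9.99% AGATAA on either strand. Among the 3 genes not printed, Itgav held 2 ETS matches and Itga2b held 1, while Itgb1 held none of the 4 motifs. These matches describe letters and not bound sites.

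The deposited values are log2 levels per probe set. They were compared with limma, which moderates the spread of each probe set by that of all others, and p-values were adjusted over all probe sets by the Benjamini-Hochberg method. Differences are in log2 units and positive where Tcf1-/- had the higher mean. The level of background was 5.21, the 95th percentile of 27 control probe sets for bacterial transcripts. Levels of different probe sets are not comparable. Tcf1-/- replicate 2 stood apart, with correlations of 0.870 to 0.893 with the other 5 arrays, which correlated with each other at 0.913 to 0.933. Kit, the receptor of the sort gate, was at 7.45 on this array, at 9.99 and 9.60 on the other Tcf1-/- arrays, and between 9.83 and 10.80 on the Tcf1-/+ arrays. Cd44 was well above background on all arrays, between 9.68 and 10.31 in Tcf1-/- and between 9.60 and 10.39 in Tcf1-/+. Il2ra, which encodes the CD25 that the gate excluded, was between 9.32 and 10.97 in Tcf1-/- and between 9.22 and 10.17 in Tcf1-/+. The mean of 3 Y-linked genes was 5.004, 8.49 and 8.42 in Tcf1-/-, against 4.07, 9.39 and 4.01 in Tcf1-/+, so that it differed among the arrays of each genotype. With it as a covariate the Itgb1 difference was 0.39, against 0.74 without it. Cd3e was between 5.97 and 6.97 in Tcf1-/- and between 6.90 and 8.73 in Tcf1-/+.

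By the higher group mean of the brightest probe set, 9 of the 10 integrin genes lay above background, against 13157 of all 18193 genes. On that probe set 9 of the 10 lay above background on all 6 arrays, and Itgam lay under it on all 6. RNA of both chains was therefore measured on every array for α4β1, α4β7, αEβ7, α6β1, αVβ1 and αLβ2, and for αVβ3 and αIIbβ3 when Itgb3, a chain outside the 10, is included. The αMβ2 pair lacked a measured α chain. On that probe set 9 of the 10 genes had a higher mean in Tcf1-/- and Itga4 a lower one, with a median difference of 0.58. Over all 18193 genes 9881 had a higher mean, and the median was 0.04. Over the 26 integrin probe sets 17 means were higher and 9 lower, with a median of 0.12, against 0.03 over all probe sets. With the probe sets of a gene averaged, Itgb1 differed by 0.12, Itgav by 0.26, Itga6 by 0.32, Itgal by 0.02, Itga4 by -0.088 and Itgae by 1.18. These averages take in every probe set, of which 3 of 6 for Itgb1 and 4 of 5 for Itgav had a group mean above background. None of the 26 probe sets passed limma's adjusted threshold of 0.05 (lowest adjusted p 0.672), where 0% of all probe sets passed. At an unadjusted p under 0.05 there were 3 of 26, against 6.48% of all probe sets. Of these, 2 were higher (Itgav and Itgb2), against 2.97% of all, and 1 was lower (a second Itgav probe set), against 3.51%. The genotypes did not overlap for 6 of 26 probe sets, against 11.8% of all probe sets. They were 3 higher, against 6.51% of all, and 3 lower, against 5.27%. On the brightest probe set of each gene, 1 of the 10 had an unadjusted p under 0.05, against 6.78% of all genes, and 3 had no overlap, against 12.2%. Without Tcf1-/- replicate 2 the counts were 6 of 26 at an unadjusted p under 0.05, against 6.11% of all probe sets, and 11 of 26 without overlap, against 20.4%. Leaving out Tcf1-/- replicate 3, Tcf1-/+ replicate 1 or Tcf1-/+ replicate 3 left 1 of 26 at an unadjusted p under 0.05. The count was 2 without Tcf1-/- replicate 1 and 3 without Tcf1-/+ replicate 2. For these fits the share over all probe sets is not given, so that the counts cannot be set against it. In bulk RNA, fewer cells that express a gene and less RNA of it per cell cannot be told apart.

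**Figure D1:**
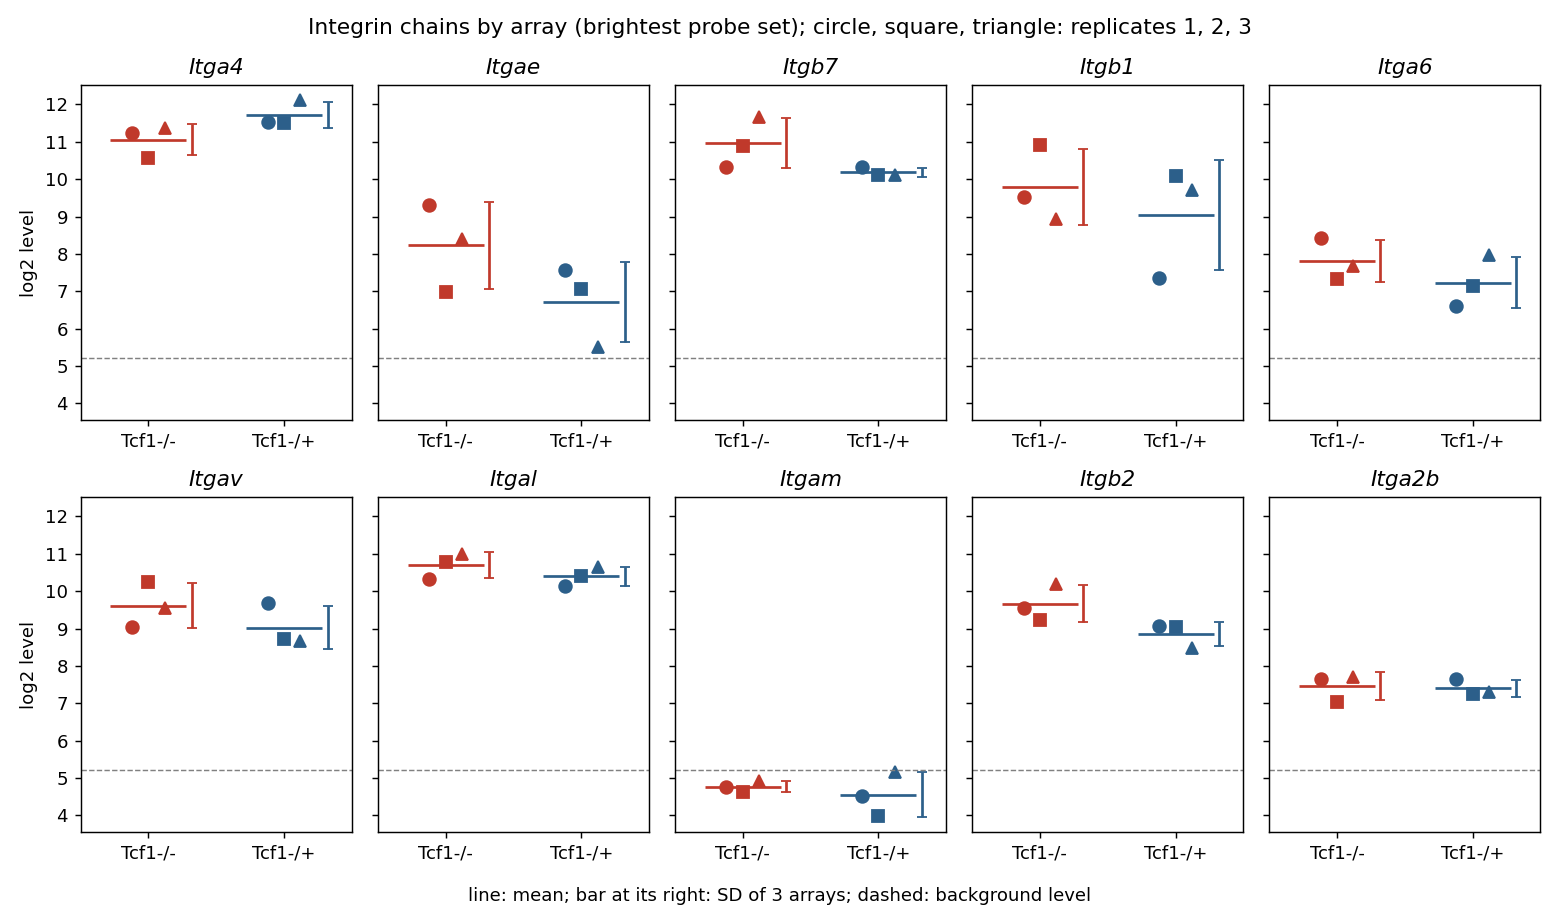
Log2 level of the brightest probe set of each integrin gene on each array, with Tcf1-/- at the left and Tcf1-/+ at the right of every panel. Lines are means, bars SDs of 3 arrays, and the dashed line is the background level of 5.21. Itgam lies under that line on all 6 arrays, and the genotypes do not overlap for Itga4, Itgb7 and Itgb2.

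Itga4 encodes α4, which pairs with β1 to bind VCAM-1 and fibronectin and with β7 to bind MAdCAM-1. Its brightest probe set, 1450155_at, read 11.23, 10.58 and 11.37 on the Tcf1-/- arrays, against 11.52, 11.49 and 12.11 on the Tcf1-/+ arrays. Every Tcf1-/- array lay under every Tcf1-/+ array. The means were 11.06 ± 0.42 in Tcf1-/- and 11.71 ± 0.35 in Tcf1-/+ (SD, n = 3 each). The difference of -0.65 had a 95% interval from -1.41 to 0.10 and an adjusted p of 0.825 from limma. It was -0.41 without Tcf1-/- replicate 2, -0.45 without Tcf1-/+ replicate 3 and -0.81 without Tcf1-/- replicate 3.

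The other 4 probe sets of Itga4 did not share that difference. On 1436037_at the Tcf1-/- arrays read 10.47, 10.63 and 10.43, against 10.65, 10.69 and 10.78 in Tcf1-/+. The genotypes did not overlap there either, but the difference was only -0.19 (SE 0.18, from limma as all SEs). The remaining probe sets differed by 0.16 (1421194_at), 0.29 (1456498_at) and -0.05 (1427615_at), and on all 3 the genotypes overlapped.

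Itgb7 encodes β7, the partner of α4 in gut homing and of αE in epithelial retention. Its 1 probe set read 10.34, 10.89 and 11.66 on the Tcf1-/- arrays, against 10.32, 10.12 and 10.11 on the Tcf1-/+ arrays. The Tcf1-/- arrays were all higher, but the lowest of them exceeded the highest Tcf1-/+ array by far less than the Tcf1-/- arrays spread among themselves. The means were 10.96 ± 0.67 in Tcf1-/- and 10.18 ± 0.12 in Tcf1-/+ (SD, n = 3 each), a difference of 0.78 with an interval of -0.10 to 1.66 and an adjusted p of 0.816 from limma. Without Tcf1-/- replicate 3, the highest array, the difference was 0.43, and without Tcf1-/- replicate 1 it was 1.09.

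Itgae encodes αE, also called CD103, which pairs with β7 alone. It had the largest difference of the 10 genes. On 1447541_s_at the Tcf1-/- arrays read 9.31, 6.99 and 8.40, against 7.58, 7.05 and 5.51 in Tcf1-/+. Tcf1-/- replicates 1 and 3 lay above all Tcf1-/+ arrays, and replicate 2 lay under 2 of them. The means were 8.23 ± 1.17 in Tcf1-/- and 6.71 ± 1.07 in Tcf1-/+ (SD, n = 3 each), a difference of 1.52 or 2.86-fold, with an interval of -0.35 to 3.39 and an adjusted p of 0.833 from limma. The second probe set, 1449216_at, read 7.56, 6.86 and 6.91 in Tcf1-/-, against 6.06, 7.29 and 5.46 in Tcf1-/+, a difference of 0.84 (SE 0.51). That was 0.44 without Tcf1-/+ replicate 3 and 1.35 without Tcf1-/+ replicate 2. On both probe sets the highest array was Tcf1-/- replicate 1 and the lowest Tcf1-/+ replicate 3. Leaving out 1 array moved the difference on the first between 0.91, without Tcf1-/+ replicate 3, and 2.14, without Tcf1-/- replicate 2.

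**Figure D2:**
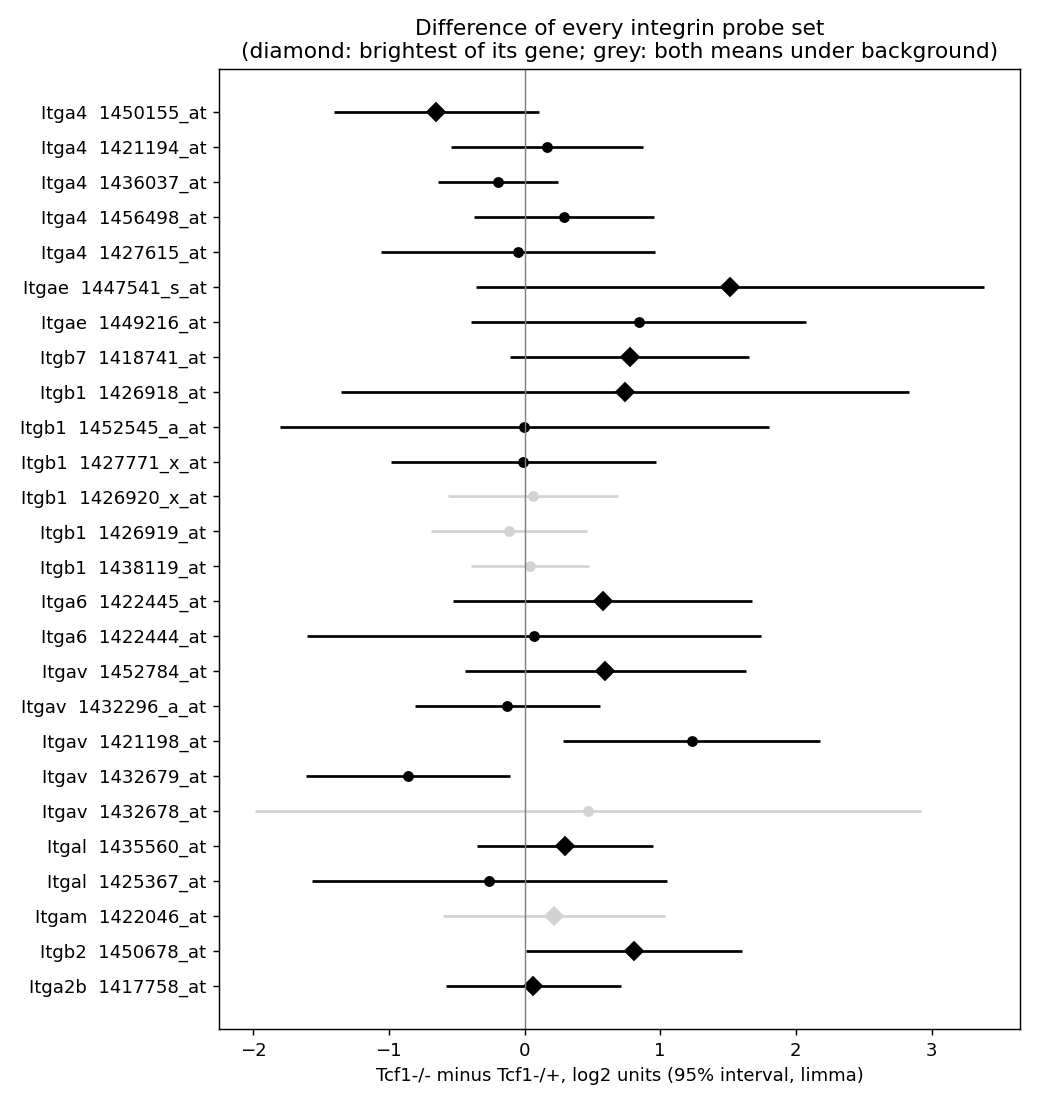
Tcf1-/- minus Tcf1-/+ in log2 units for all 26 integrin probe sets, with 95% intervals from limma. Diamonds are the brightest probe set of a gene and grey marks have both means under background. The intervals of 3 probe sets exclude 0: Itgb2 and 1421198_at of Itgav on the higher side, and 1432679_at of Itgav on the lower side.

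Itgb1 encodes β1, the common partner of α4, α6 and αV and of most matrix-binding α chains. Its 6 probe sets split into 3 with a mean above background and 3 under it on all arrays. On 1426918_at the Tcf1-/- arrays read 9.51, 10.91 and 8.94, against 7.36, 10.07 and 9.70 in Tcf1-/+. The genotypes overlapped, and the difference of 0.74 had an interval of -1.35 to 2.84. On 1452545_a_at the readings were 9.87, 7.65 and 9.80 in Tcf1-/-, against 8.14, 9.76 and 9.42 in Tcf1-/+, a difference of -0.00070. Tcf1-/- replicate 2 was thus the highest of the 6 arrays on the first probe set and the lowest on the second. The third probe set, 1427771_x_at, lay close to background and had that array lowest too, at 4.69, and it differed by -0.0082. Without that array 1452545_a_at differed by 0.73, 1427771_x_at by 0.33 and 1426918_at by 0.18. Tcf1-/+ replicate 1 was the lowest Tcf1-/+ array on all 3, and without it the difference on 1426918_at was -0.099.

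**Figure D3:**
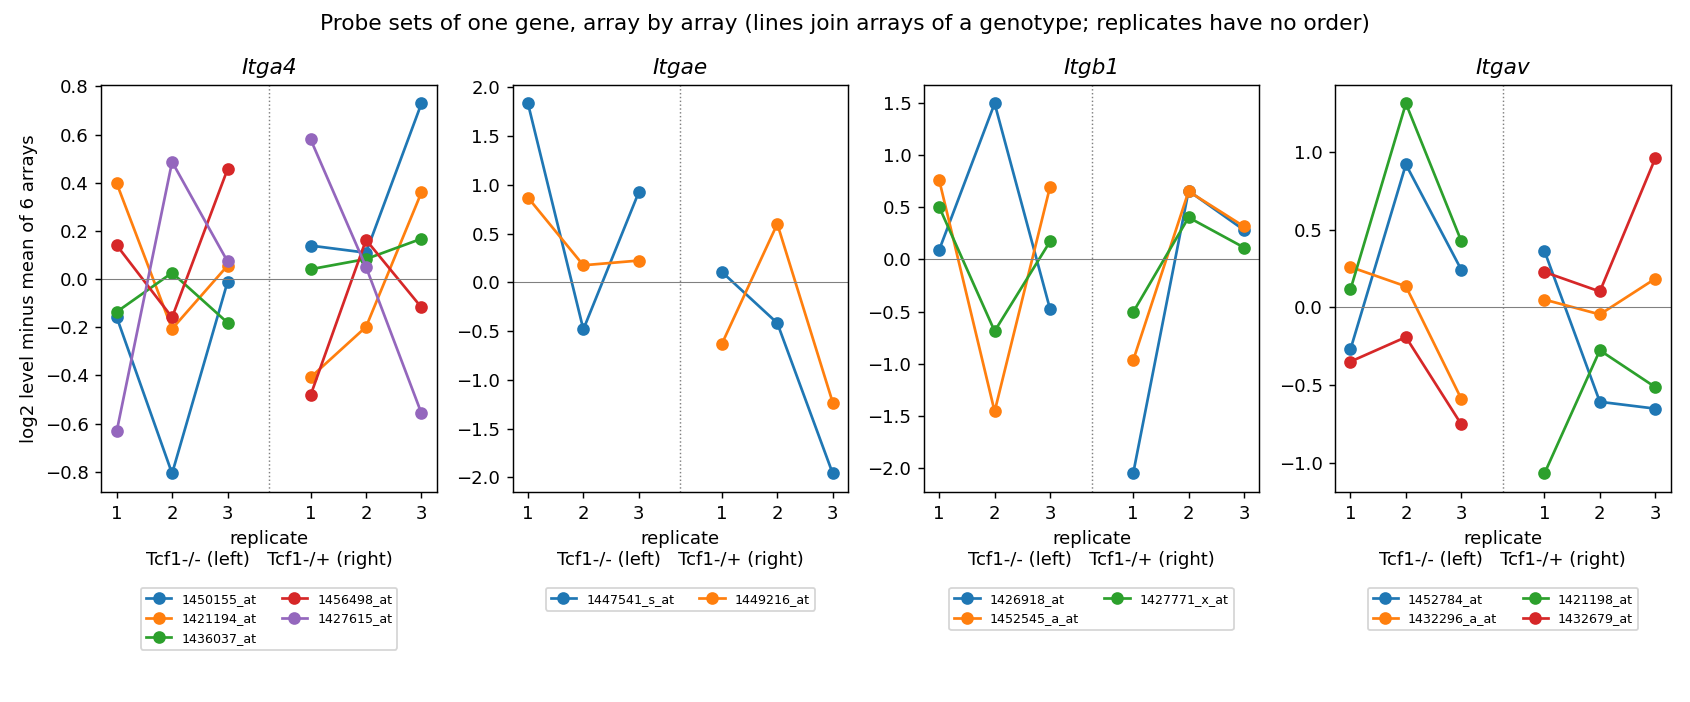
Log2 levels of the probe sets of Itga4, Itgae, Itgb1 and Itgav that have a mean above background, each minus its mean over the 6 arrays, with Tcf1-/- arrays left of Tcf1-/+ arrays. Lines join arrays of a genotype and carry no order. For Itgb1, Tcf1-/- replicate 2 is the highest array on 1426918_at and the lowest on both other probe sets.

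Itga6 encodes α6, which with β1 forms a laminin receptor. On 1422445_at the Tcf1-/- arrays read 8.43, 7.33 and 7.67, against 6.60, 7.14 and 7.96 in Tcf1-/+. The genotypes overlapped, with a difference of 0.58 (SE 0.45). It was 0.27 without Tcf1-/- replicate 1, 0.26 without Tcf1-/+ replicate 1 and 0.94 without Tcf1-/+ replicate 3. The second probe set, 1422444_at, read 6.78, 4.81 and 7.49 in Tcf1-/-, against 6.36, 6.03 and 6.48 in Tcf1-/+, so that replicate 2 of Tcf1-/- lay under background. Its difference was 0.07 with all arrays, 0.84 without that replicate and -0.50 without Tcf1-/- replicate 3.

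Itgav encodes αV, which binds RGD motifs of vitronectin and fibronectin with β1, β3 or β5. Its 5 probe sets differed in both directions. The brightest, 1452784_at, read 9.05, 10.24 and 9.56 in Tcf1-/-, against 9.68, 8.72 and 8.67 in Tcf1-/+. It overlapped between genotypes and differed by 0.59 (SE 0.42), by 0.28 without Tcf1-/- replicate 2 and by 0.92 without Tcf1-/+ replicate 1. On 1421198_at the Tcf1-/- arrays read 7.10, 8.30 and 7.41, against 5.92, 6.71 and 6.48 in Tcf1-/+. All Tcf1-/- arrays were above all Tcf1-/+ arrays here. The difference of 1.23, or 2.35-fold, had an interval of 0.29 to 2.18, an unadjusted p of 0.0189 and an adjusted p of 0.672 from limma. It stayed between 0.89 and 1.48 when single arrays were left out, with an unadjusted p under 0.05 in 5 of the 6 fits.

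A further Itgav probe set differed the other way. On 1432679_at the Tcf1-/- arrays read 5.38, 5.54 and 4.98, against 5.96, 5.83 and 6.69 in Tcf1-/+, without overlap. The difference was -0.86, with an interval of -1.61 to -0.11 and an adjusted p of 0.727 from limma, and 1 Tcf1-/- array lay under background. Its unadjusted p was 0.0314, and was under 0.05 in 3 of the 6 fits that left out an array. The annotation names the same transcript record as the target of this probe set and of 1432678_at, which was under background on 5 arrays and at 6.95 on Tcf1-/- replicate 2. The fifth, 1432296_a_at, differed by -0.13 (SE 0.28).

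Itgb2 encodes β2, the leukocyte-restricted chain of LFA-1 and Mac-1. Its 1 probe set read 9.56, 9.24 and 10.20 on the Tcf1-/- arrays, against 9.07, 9.03 and 8.48 on the Tcf1-/+ arrays. The genotypes did not overlap. The means were 9.67 ± 0.49 in Tcf1-/- and 8.86 ± 0.33 in Tcf1-/+ (SD, n = 3 each), a difference of 0.81 or 1.75-fold. The interval was 0.0097 to 1.60, with an unadjusted p of 0.048 and an adjusted p of 0.766 from limma. The unadjusted limma p was under 0.05 in 1 of the 6 fits that left out an array. It was 0.0634 with a floor at background, 0.0696 with a filter on mean level and 0.0728 with an intensity trend. With the replicate block it was 0.105 and with the Y-linked covariate 0.1. It stayed under 0.05 with quantile normalization (0.0469), a common median (0.0411), array weights (0.0293) and the fit on gene averages (0.039). Single arrays left out moved the difference between 0.54, without Tcf1-/- replicate 3, and 1.02, without Tcf1-/- replicate 2.

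Itgal encodes αL, which with β2 forms LFA-1, the receptor for ICAM proteins. On 1435560_at it read 10.32, 10.79 and 10.98 in Tcf1-/-, against 10.14, 10.40 and 10.66 in Tcf1-/+. The genotypes overlapped, and the difference of 0.30 (SE 0.26) was 0.16 without Tcf1-/- replicate 3, 0.17 without Tcf1-/+ replicate 1 and 0.49 without Tcf1-/- replicate 1. On 1425367_at the difference was -0.26 (SE 0.53), between -0.72 and 0.23 when single arrays were left out, with the lowest of all 6 arrays in Tcf1-/- replicate 1 at 7.22 and the highest in Tcf1-/- replicate 2 at 9.11.

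Itgam encodes αM, or CD11b, the myeloid partner of β2. It read 4.76, 4.64 and 4.92 in Tcf1-/-, against 4.51, 3.98 and 5.17 in Tcf1-/+. All 6 values lay under background, so that no size of difference is well measured. Itga2b encodes αIIb, or CD41, the fibrinogen receptor chain of platelets that is also carried by early haematopoietic progenitors. It read 7.65, 7.03 and 7.71 in Tcf1-/-, against 7.64, 7.25 and 7.30 in Tcf1-/+. These values overlapped, and differed by 0.06, with a 95% interval from -0.58 to 0.71.

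Other genes of integrin adhesion were read from lists of further integrin chains, of activators and adaptors, and of ligands, each gene on its brightest probe set. Of the further chains 14 of 16 listed were measured, 11 with a higher and 3 with a lower Tcf1-/- mean, a median difference of 0.21 against 0.04 over all genes, and none passed the adjusted threshold. At an unadjusted p under 0.05 there were 3, all higher, against 6.78% of all genes. Itgb5, a partner of αV, read 8.18, 8.72 and 6.68 in Tcf1-/-, against 5.95, 6.15 and 5.68 in Tcf1-/+, without overlap. Its difference of 1.93 (SE 0.54) was the largest of the 14, with an adjusted p of 0.607 from limma. Itgb3, a partner of αV and αIIb, read 10.02, 10.18 and 9.99 in Tcf1-/-, against 9.70, 9.47 and 9.50 in Tcf1-/+, and differed by 0.51. Itgb4, the α6 partner of epithelial hemidesmosomes, differed by 0.73. Itga1, a collagen-binding chain, differed by 1.29 with its Tcf1-/+ mean and 2 of 3 Tcf1-/- arrays under background. Itgax, or CD11c, a β2 partner, read 6.86, 9.52 and 7.98 in Tcf1-/-, against 7.21, 6.46 and 7.30 in Tcf1-/+, and overlapped.

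Of the activators and adaptors 38 of 42 listed symbols, which include both Fyb and Fyb1, were measured. Of these, 23 had a higher and 15 a lower Tcf1-/- mean, and none passed the adjusted threshold. The median difference was 0.06, and at an unadjusted p under 0.05 there were 4 higher and 1 lower, against 6.78% of all genes. Rasgrp1, an exchange factor of Ras in lymphocytes, read 8.53, 11.32 and 9.16 in Tcf1-/-, against 5.98, 7.96 and 7.03 in Tcf1-/+, a difference of 2.68 (SE 0.85). The adaptor Crkl differed by 1.50 (SE 0.52) and Fermt2, a kindlin, by 0.71 (SE 0.21). Cyth1, a guanine nucleotide exchange factor known to regulate LFA-1 adhesion, read 7.63, 7.98 and 8.02 in Tcf1-/-, against 8.72, 8.91 and 8.55 in Tcf1-/+, a difference of -0.86 (SE 0.21). Both ranges are narrow and do not overlap, and the adjusted p was 0.558 from limma. Parvb was the remaining gene with an unadjusted p under 0.05, at 1.65 with its Tcf1-/+ mean and 1 Tcf1-/- array under background, and is named after its value was seen.

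Of the ligands 21 of 22 listed were measured, 14 with a higher and 7 with a lower mean, none past the adjusted threshold and 2 higher at an unadjusted p under 0.05, against 6.78% of all genes. Thy1, a lymphocyte glycoprotein that can bind β2 and αV integrins, read 10.97, 11.49 and 10.69 in Tcf1-/-, against 8.98, 9.24 and 7.48 in Tcf1-/+, with a difference of 2.48 and an adjusted p of 0.468 from limma. Icam2, a ligand of LFA-1, read 9.35, 8.11 and 9.12 in Tcf1-/-, against 7.87, 7.05 and 7.56 in Tcf1-/+, and differed by 1.36 (SE 0.41). Cdh1, the E-cadherin bound by αEβ7, differed by 1.09 with a Tcf1-/+ mean under background, and Icam4 by 1.00, also from a Tcf1-/+ mean under background. The α4 ligand gene Vcam1 differed by -0.05, and Madcam1 lay under background on all arrays. Without Tcf1-/- replicate 2 the counts at an unadjusted p under 0.05 were 2, 5 and 2 for further chains, adaptors and ligands, against 6.36% of all genes.

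**Figure D4:**
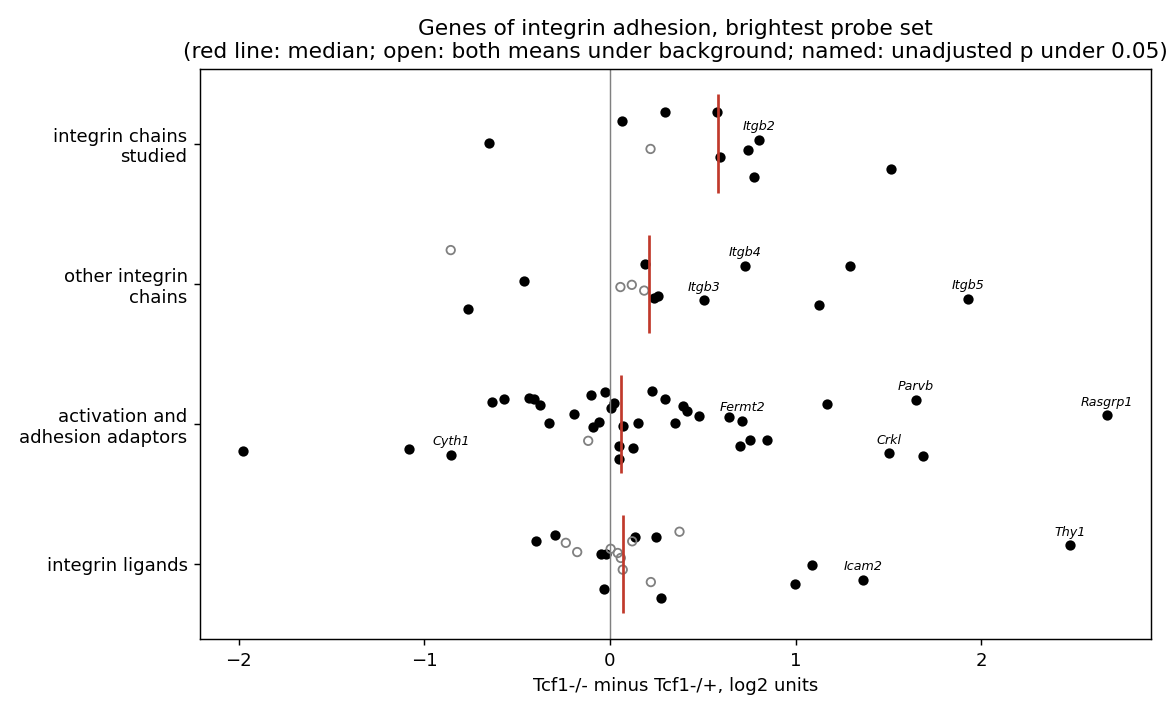
Tcf1-/- minus Tcf1-/+ in log2 units for the 10 integrin chains studied, 14 further chains, 38 activators and adaptors and 21 ligands, each gene on its brightest probe set. Red lines are medians (0.58, 0.21, 0.06 and 0.07 in that order), open circles have both means under background, and named genes have an unadjusted p under 0.05. None passed the adjusted threshold.

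Markers of other cells differed between the arrays as well. The 12 mast cell and basophil markers measured all had higher means in Tcf1-/-. Their summed level, as log2 of the sum, was 13.34 to 14.45 in Tcf1-/- and 11.85 to 12.18 in Tcf1-/+, and 0 of the 12 were under background on all arrays. Mast cells and their precursors are known to carry β7 integrins. Mcpt8, a basophil protease, read 8.98, 8.05 and 10.22 in Tcf1-/-, against 6.12, 5.31 and 6.40 in Tcf1-/+, and Mcpt2, of a family of similar proteases whose probe sets may share signal, differed by 2.44. On the list mean of centred levels the Tcf1-/- arrays were at 0.97, -0.04 and 1.67, against -0.85, -0.86 and -0.89 in Tcf1-/+. The part of these cells in the differences of Itgae, Itgb7 and Itgb2 was not tested.

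The NK and innate lymphoid markers, cells in which αE, β7 and β2 integrins are also known, had higher means for 15 of 19. Their summed level was 13.77 to 14.57 in Tcf1-/- and 11.89 to 12.58 in Tcf1-/+, with Klra8 under background on all arrays. Id2 differed by 3.19 and Ccr6 by 3.56. The 4 markers with lower means were Klrd1 at -1.49, Eomes at -0.75, Nkg7 at -0.67 and Tbx21 at -0.05. Of these, Klrd1 was without overlap between the genotypes. Gate and progenitor markers had lower means for 10 of 12, with a summed level of 13.80 to 13.97 in Tcf1-/- and 14.18 to 14.35 in Tcf1-/+. Flt3 differed by -1.53 and Cd34 by -1.24. The part of these shifts in the integrin differences was not tested.

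Myeloid markers, which bear on Itgb2 and Itgam, had higher means for 14 of 20. Their summed level was 13.52 to 14.37 in Tcf1-/- and 13.38 to 14.79 in Tcf1-/+, so that the genotypes overlapped, and Cd14 and Adgre1 were under background on all arrays. On the list mean of centred levels the Tcf1-/- arrays were at 0.14, -0.36 and 0.95, against -0.62, -0.77 and 0.67 in Tcf1-/+, which overlapped too. Megakaryocyte and platelet markers, which bear on Itga2b, had higher means for 14 of 16. Their summed level overlapped, at 11.63 to 11.89 in Tcf1-/- and 11.30 to 11.85 in Tcf1-/+. Their centred mean did not, at 0.18, 0.22 and 0.33 in Tcf1-/-, against -0.15, -0.43 and -0.15 in Tcf1-/+. Ppbp, Gp5, Gp6 and Tubb1 were under background on all arrays. Pf4 read 7.72 on Tcf1-/- replicate 1 and 5.34 or less on the other 5 arrays. The part of myeloid and megakaryocyte cells in the values of Itgb2, Itgam and Itga2b was not tested.

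**Figure D5:**
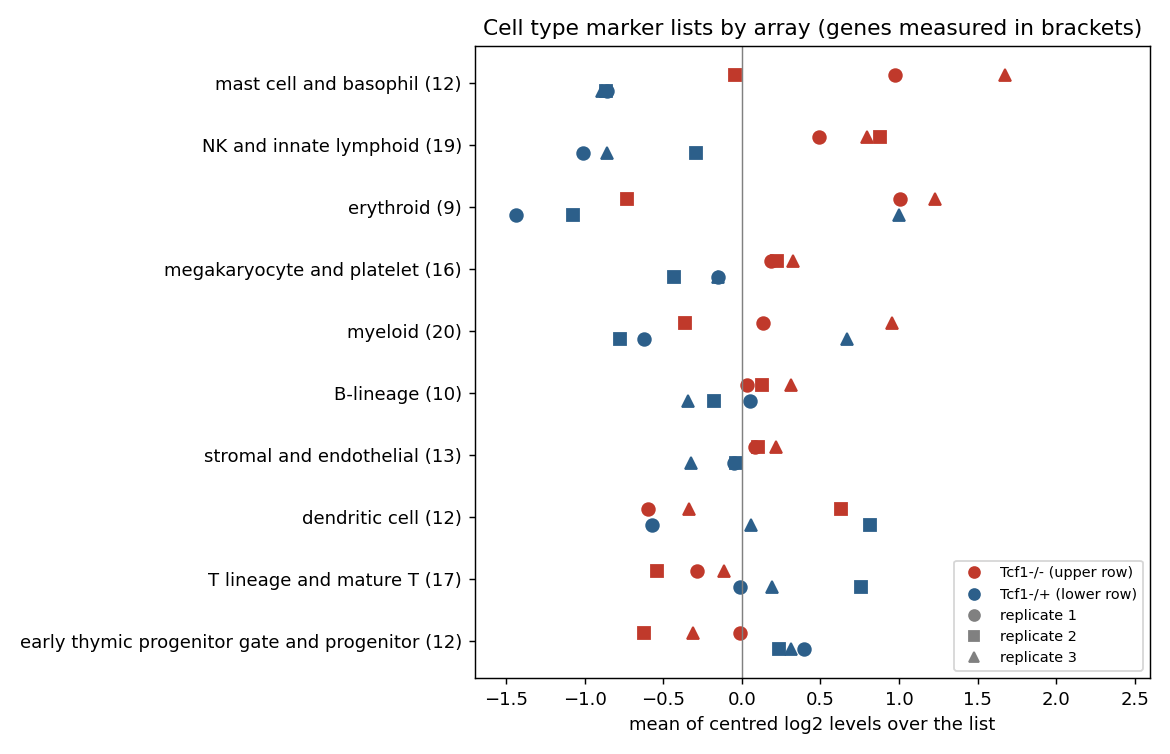
Mean of centred log2 levels of each cell type marker list on each array, with Tcf1-/- in the upper and Tcf1-/+ in the lower row of each list and symbols for replicates. The mast cell and basophil list lies between -0.04 and 1.67 on the Tcf1-/- arrays and between -0.89 and -0.85 on the Tcf1-/+ arrays.

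The genes most like the 3 members of smallest unadjusted p on their brightest probe set (Itgb2, Itgb7 and Itga4) were found by the root mean square distance of centred log2 levels over the 6 arrays, among 12712 genes with a mean above background. For Itgb2, whose own levels varied by 0.53 on that measure, the nearest were Trp53bp2 at a distance of 0.111, 4921525O09Rik at 0.134 and Gm26588 at 0.141. For Itgb7, which varied by 0.55, they were Rnf31 at 0.139, Cr2 at 0.154 and Aknaos at 0.158. For Itga4, which varied by 0.45, they were Snrnp35 at 0.111, Snord104 at 0.119 and Sgo1 at 0.120. None of the 9 was another integrin gene or in a list used here.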

How the data were processed

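RNA from sorted early thymic progenitors (about 3 ng from 1000 cells, per the labels) was amplified, labelled with biotin and hybridized to Affymetrix Mouse Genome 430 2.0 arrays. The authors deposited log2 values per probe set. The sources used here do not state the summarization or the normalization. Values from 2.15 to 14.8 fit the log2 scale. They were used as deposited. Arrays have no read depth, and their number limits the precision.

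Of 45101 probe sets, 64 controls were left out. The platform annotation gave 1 symbol to 34945, several to 932 and none here to 9160, and 0 symbols needed an update from the RefSeq table of GRCm38.p6. A gene with several probe sets was represented by the one of highest mean over the 6 arrays. The genotype contrast was fitted over all probe sets by lmFit and eBayes of limma 3.58.1 (R 4.3.3), two-sided and without covariates, with Benjamini-Hochberg adjustment and a threshold of 0.05. The test was checked on simulated data. Since 0.1 is the smallest two-sided p of an exact permutation test at this size, none was used.

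The integrin genes and lists were chosen with earlier results of these data known. The text names all members, up to 4 genes of each adhesion list and up to 2 of each marker list by smallest unadjusted p with a mean above background, and 7 genes always given (Kit, Cd44, Il2ra, Cd3e, Itgb3, Pf4 and Itgax). Parvb, Vcam1 and Madcam1 were chosen after their values were seen, as were the innate lymphoid and myeloid markers named for lower means. The comparison was repeated with quantile normalization, with a common median, with the replicate number blocked, with a filter or a floor at background, with an intensity trend and robust variances, with array weights, with a covariate for the Y-linked level, with the mean of a gene's probe sets, and with each array left out. The nearest genes of the 3 members of smallest unadjusted p were also named by rule. Columns of values not used numbered 0. The gene deleted in Tcf1-/- mice, Tcf7, was not analysed here.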

Additional observations from a re-analysis of the deposited data

How the results depend on the processing

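Over the alternatives run, 149 differences of the 10 integrin genes were recomputed, 143 kept their sign, 5 changed it, 1 was exactly 0 and 0 passed the adjusted threshold. The count of probe sets past that threshold stayed at 0 for the integrins and for the whole table in every alternative run on them. Itgam, under background throughout, differed by 0 with the floor at background and was left out by the filter on mean level. The 5 sign changes came from leaving out single arrays. Itga2b then lay between -0.058 and 0.28, being -0.028, -0.058 and -0.012 without Tcf1-/- replicate 1, Tcf1-/- replicate 3 and Tcf1-/+ replicate 2. Itgam lay between -0.069 and 0.53, with the lowest value without Tcf1-/+ replicate 2, and Itgb1 between -0.099 and 1.26, with the lowest without Tcf1-/+ replicate 1. The count of integrin probe sets at an unadjusted p under 0.05, 3 with all arrays, was 1 after adding the Y-linked level to the model and between 1 and 6 when single arrays were left out. With the replicate block it was 1 as well, the Itgav probe set 1421198_at, and the block changed no call at the adjusted threshold. Except without Tcf1-/- replicate 2, the share over all probe sets is not given for these alternatives. Same-numbered arrays deviated from their genotype means with correlations of 0.03, 0.04 and 0.01. All pairs of arrays across the genotypes lay between -0.09 and 0.06. Deviations from means of 3 arrays cannot decide whether arrays of the same number share a litter or day, and the labels do not say so. The causes of these shifts were not tested. The counts without Tcf1-/- replicate 2 for the adhesion lists and for probe sets without overlap were added after seeing the data. The median SD of a probe set, 0.40 in Tcf1-/- and 0.34 in Tcf1-/+, and 3 arrays of each genotype limit the size of difference that can be seen.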

Other observations

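The remaining genes of smallest unadjusted p in the marker lists did not pass limma's adjusted threshold. T-lineage and mature T markers had lower means for 12 of 17, with a median of -1.04. At an unadjusted p under 0.05 from limma there were 6 lower and 1 higher, against 6.78% of all genes in either direction. Cd4, the 1 higher, differed by 2.93 and Cd28 by -2.97. Dendritic cell markers had higher means for 6 of 12 and lower means for 6, with a median of -0.19. Their summed levels overlapped between the genotypes. Of these markers Cd74, a class II chaperone of dendritic cells, differed by -1.61. B-lineage markers had higher means for 8 of 10 and lower means for 2, with a median of 0.12. Erythroid markers had higher means for 6 of 9 and lower means for 3, with a median of 0.89. Summed levels of the genotypes overlapped for the erythroid list and not for the B-lineage list. The B-lineage genes Blk and Pax5 differed by 2.44 and 0.52, and the erythroid genes Car1 and Epor by 3.41 and 1.16. Stromal and endothelial markers had higher means for 12 of 13 and a lower mean for 1, with a median of 0.11. Among them Pdgfrb and Krt5 differed by 0.66 and 1.10. The genotypes overlapped for Pax5, Car1, Pdgfrb and Krt5. Car1 read 10.97, 7.85 and 9.42 in Tcf1-/-, against 4.12, 4.66 and 9.24 in Tcf1-/+, where only 1 array lay above background. Krt5 read 9.26 on Tcf1-/- replicate 3 and 6.74 or less on every other array. Rab27b, a vesicle GTPase of platelets, differed by 2.24, and the myeloid genes Fcer1g and Ngp by 2.27 and 1.95. Of the 20 myeloid markers 14 had higher and 6 lower means. Among the lower were Csf1r at -1.63, Csf2ra at -1.40 and Cd68 at -0.90, all with overlapping genotypes. The Tcf1-/+ means of Pax5, Epor, Rab27b and Ngp and the Tcf1-/- mean of Cd28 lay under background.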
